A study of Mus musculus with 2 samples.

Results

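Sialyltransferases, polypeptide GalNAc-transferases, N-acetylglucosaminyltransferases, galactosyltransferases and fucosyltransferases build the outer sugars of glycoproteins and glycolipids, and their transcripts were followed here in erythroid progenitors that over-expressed the long noncoding RNA ESlncRNA. The members were taken by name: every non-control array sequence whose gene name starts with St3gal, St6gal (St6galnac included), St8sia, Galnt, B3gnt, B3galt, B4galt, Fut or Gcnt followed by a number. This gave 68 genes with 89 array sequences, of 36315 genes or lincRNA intervals with 55681 sequences on the array. For 43 of the 68 genes a sequence was well above background, and these 43 were tested among 19869 genes. The other 25 were not tested and are named below by class.

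Each of 2 arrays carried 2 RNAs. The first was total RNA from cells transduced with ESlncRNA (AK148461), labelled with Cy5, and the second was total RNA from cells transduced with the vector, labelled with Cy3. All cells were Lin- erythroid progenitors from fetal livers of C57BL/6 mice at stage E14.5, and both transduced populations were sorted for GFP. Both groups therefore share transduction, GFP and the sort, and the labels give ESlncRNA over-expression as their difference. The same dye carried the same condition on both arrays, so a bias of the dye at a given sequence is part of both of its ratios. The labels do not state whether replicates 1 and 2 are separate cultures or animals. The p-values may therefore measure only technical spread between 2 arrays.

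Most of these enzymes sit in the Golgi and add 1 sugar each from a nucleotide sugar. Galnt enzymes start mucin-type O-glycans on serine and threonine, Gcnt enzymes branch the chains, B3gnt and B4galt enzymes extend them with N-acetyllactosamine, and sialyl- and fucosyltransferases cap them. On leukocytes, sialic acid and fucose on the same chain form sialyl Lewis x, the ligand that selectins bind during rolling, and fucosyltransferase VII (Fut7) makes it. Red cell precursors carry dense sialic acid on their surface glycoproteins, and the ganglioside and blood group structures of red cells are made by members of the same families.

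The array sequences of 6 genes are shown because they measure members described in full below, and because the sequences of Fut7, and those of Gcnt2, gave unlike ratios. Each line gives the first 30 of the 60 bases, 5′ to 3′ as the array files give them, in lower case because no part of them is singled out. Positions of the whole sequence come from the array annotation (mm9). Placement in exons, introns or UTRs was not used here.
St3gal6: aatggtgatcaacttgacttaaaattgacc
St8sia4: aaggaaggatgaagcttactctgtaggttc
Galnt3: gttgtctcttgttgacttgtctgtcaaata
B4galt5: gttttaaaaggtgccaggggtacatttttg
Fut7, brighter sequence: gggttgtggaaggacagtgcagatgattct
Fut7, dimmer sequence: ttttcctgttcagtgagcaggaattcagga
Gcnt2, brighter sequence: cagatgatgtagcaagccttaggatggttc
Gcnt2, dimmer sequence: attggtccaaagatactttcagtcccgatg
St3gal6 lies at chr16:58470722-58470781 and St8sia4 at chr1:97484331-97484390, both on the minus strand. Galnt3 lies at chr2:65921662-65921721 and B4galt5 at chr2:167124056-167124115, also on the minus strand. The Fut7 sequences lie at chr2:25281802-25281861 (brighter) and chr2:25281521-25281580 (dimmer), and the Gcnt2 sequences at chr13:41055331-41055390 (brighter) and chr13:40983592-40983651 (dimmer), all on the plus strand.

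Pooled over the classes, member transcripts were mostly lower in ESlncRNA cells after loess. This did not hold in every class: St3gal had 3 higher and 1 lower, and 3 of 4 tested St6galnac genes did not pass. Of the 43 tested members 29 fell after loess normalization, among them Fut7, the leukocyte fucosyltransferase, by 17.1-fold, and St8sia4, a polysialic acid synthase, by 6.94-fold. Only 5 rose, and St3gal6, which sialylates N-acetyllactosamine chains, rose most, by 3.45-fold. The remaining 9 did not pass the test (limma, Benjamini-Hochberg adjusted p under 0.05 over all array sequences kept, n = 2 arrays). The members' shares were 11.6% higher and 67.4% lower, beside 26.3% higher and 36.8% lower among all genes tested. At least 2-fold on both arrays, 1 member was higher and 13 (30.2%) were lower, beside 0.604% higher and 8.1% lower of all genes. Several of the 13 were kept only through the vector channel: B3gnt5 and Gcnt2 were above background in ESlncRNA cells on 0 arrays, and Galnt3, Galnt12 and Fut4 on 1. With both channels required to be above background on both arrays, 34 members were left. Of these 8 were at least 2-fold lower, 20 were called lower and 5 higher, where all genes gave 5904 lower and 5008 higher. How many of all genes this filter left, and how many of them were at least 2-fold lower, is not given here. Shares of members and of all genes therefore cannot be compared under it. The shares above hold only for the filter that asks for 1 channel or more, which keeps genes bright in vector cells alone. The median log2 ratio of ESlncRNA over vector was -0.39 over the 43 members and -0.03 over all genes.

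The split depends on how the 2 dyes were balanced. With median centring of each array in place of loess, the median of all genes moved to 0.34, and 18 members were called higher and 19 lower, where all genes gave 12511 and 3633. With Agilent's processed signals that median was 0.11, with 9 members called higher and 24 lower, where all genes gave 6821 and 4707. Ratios smaller than these shifts have no settled direction, and some larger ones turned or lost theirs. With median centring Galnt2 went from -0.41 to 0.24 and St3gal1 from -0.55 to 0.03. The shift was larger for some genes than for the median, as for St3gal5, which went from 0.65 to 1.40. Of the 9 members that did not pass, 8 were called higher with median centring, at 0.60 (St3gal3), 0.48 (St6galnac4), 0.48 (B3galt6), 0.36 (Galnt7), 0.36 (B3gnt1), 0.35 (St3gal4), 0.34 (St6galnac1) and 0.23 (Fut11), and St6galnac3 (0.07) was not. Members whose call ended or turned with median centring are marked below, and some that lost it with processed signals are marked too.

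**Figure D1:**
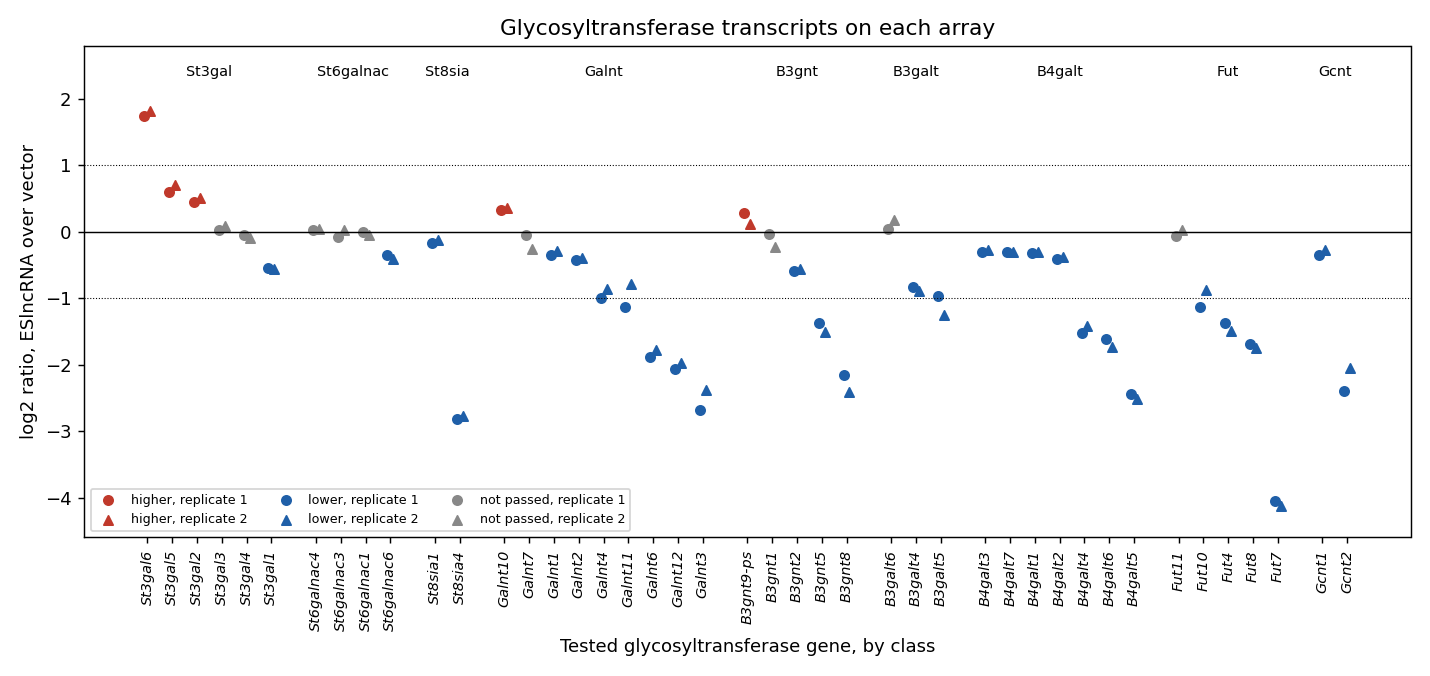
Log2 ratio of ESlncRNA over vector (vertical axis) for each of the 43 tested genes, grouped by class, with a circle for replicate 1 and a triangle for replicate 2 and colours for genes called higher, lower or not passed. Dotted lines mark 2-fold; St3gal6 alone lies above the upper line and 13 genes lie below the lower line on both arrays, with Fut7 at -4.09 on average.

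Other transcripts moved with these genes. The 12 granulocyte markers, such as S100a8, S100a9 and Mpo, all fell, with a median log2 ratio of -4.34. Their summed intensity was 44638 and 51236 in ESlncRNA cells, against 1150423 and 1275072 in vector cells (replicates 1 and 2), and each of the 12 was still well above background in ESlncRNA cells. All 11 tested macrophage markers fell (median -2.19, summed intensity 5931 and 6404 in ESlncRNA cells, against 25891 and 27131 in vector cells), and Emr1, Vcam1, Cd68 and Mrc1 were not well above background in ESlncRNA cells. All 11 megakaryocyte markers (median -1.85) and all 8 tested mast cell and basophil markers (median -1.90) fell too. Of 10 stem and progenitor markers 9 fell and Kit rose (median -2.11). Of 15 erythroid markers, all well above background in both groups, 11 rose, 1 fell and 3 did not pass (median 0.66, summed intensity 764056 and 669562 in ESlncRNA cells, against 515228 and 433468 in vector cells). The endothelial and stromal list had 8 of 9 lower (median -1.23), the hepatocyte list 7 of 8 (median -0.78), and of 4 tested lymphocyte markers 2 rose and 2 fell. In the endothelial and stromal list 5 markers were not well above background in ESlncRNA cells, so the size of its median is not exact (-3.10 with processed signals). The hepatocyte, mast cell and basophil, and stem and progenitor lists each had 2 such markers. The medians of these marker lists kept their sign with median centring and with processed signals. In bulk RNA, fewer cells of a type and less RNA per cell cannot be told apart, and the part of these cell types in the glycosyltransferase results was not tested.

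The α2,3-sialyltransferases (St3gal, 6 genes, all tested) were the class with most transcripts higher in ESlncRNA cells: 3 rose, 1 fell and 2 did not pass, with a median log2 ratio of 0.27. The St3gal6 sequence had intensities of 1088 and 1058 in ESlncRNA cells, against 325 and 298 in vector cells. The lowest ESlncRNA value was thus above the highest vector value, and the log2 ratio was 1.78 ± 0.059 (SD, n = 2 arrays, limma adjusted p = 6.17e-07). St3gal5 makes the ganglioside GM3, the entry point of most gangliosides. It had intensities of 15250.5 and 18242 in ESlncRNA cells, against 10049.8 and 11202 in vector cells. The ranges did not overlap, and the log2 ratio was 0.65 ± 0.072 (limma adjusted p = 7.58e-05). St3gal2, which caps core 1 O-glycans and gangliosides, had intensities of 3266 and 3578 in ESlncRNA cells, against 2381 and 2523 in vector cells, a log2 ratio of 0.48 ± 0.034 (limma adjusted p = 0.000241).

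St3gal1, the main sialyltransferase of core 1 O-glycans, went the other way. Its intensities were 3056 and 2865 in ESlncRNA cells, against 4473 and 4209 in vector cells, a log2 ratio of -0.55 (limma adjusted p = 0.000113) that was 0.03 and not called with median centring. St3gal3 and St3gal4, which both sialylate N-acetyllactosamine, had log2 ratios of 0.06 and -0.07 and did not pass. The St3gal median was positive under each scaling: 0.82 with median centring and 0.48 with processed signals.

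The α2,6-sialyltransferases of galactose, St6gal1 and St6gal2, were not tested, because no sequence of either was above background on both arrays. One St6gal1 sequence was printed 10 times per array. Its usable spots gave log2 ratios from -0.07 to 0.04 on replicate 1 (8 spots) and from -0.14 to 0.19 on replicate 2 (10 spots), with signals not well above background in either group. Of the 6 St6galnac genes, which add sialic acid to GalNAc in O-glycans and gangliosides, 4 were tested. St6galnac6, a synthase of α-series gangliosides, had intensities of 2659.9 and 2443 in ESlncRNA cells, against 3382 and 3251 in vector cells. Its log2 ratio of -0.38 ± 0.047 (limma adjusted p = 0.000771) lost its call with processed signals (-0.23) and turned to 0.18 with median centring. St6galnac1, St6galnac3 and St6galnac4 lay between -0.03 and 0.03 and did not pass, and St6galnac2 and St6galnac5 were not tested.

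Of the 6 α2,8-sialyltransferase genes (St8sia), 2 were tested and both were called lower, with a median of -1.47 that was -0.092 with no filter. St8sia4 builds polysialic acid, a long chain best known on the neural cell adhesion molecule. It had intensities of 251 and 263 in ESlncRNA cells, against 1759.5 and 1804 in vector cells. The groups were far apart on both arrays, and the log2 ratio was -2.79 ± 0.024 (limma adjusted p = 9.88e-08). St8sia1, the GD3 synthase, was near background, at 83.8 and 85.8 in ESlncRNA cells (above background on 1 of 2 arrays) against 93.9 and 93.0 in vector cells. Its ratio of -0.14 (limma adjusted p = 0.0426) was not called with median centring, processed signals, the authors' deposited log2 values or no filter on background. St8sia2, the other polysialic acid synthase, was not tested, nor were St8sia3, St8sia5 and St8sia6.

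**Figure D2:**
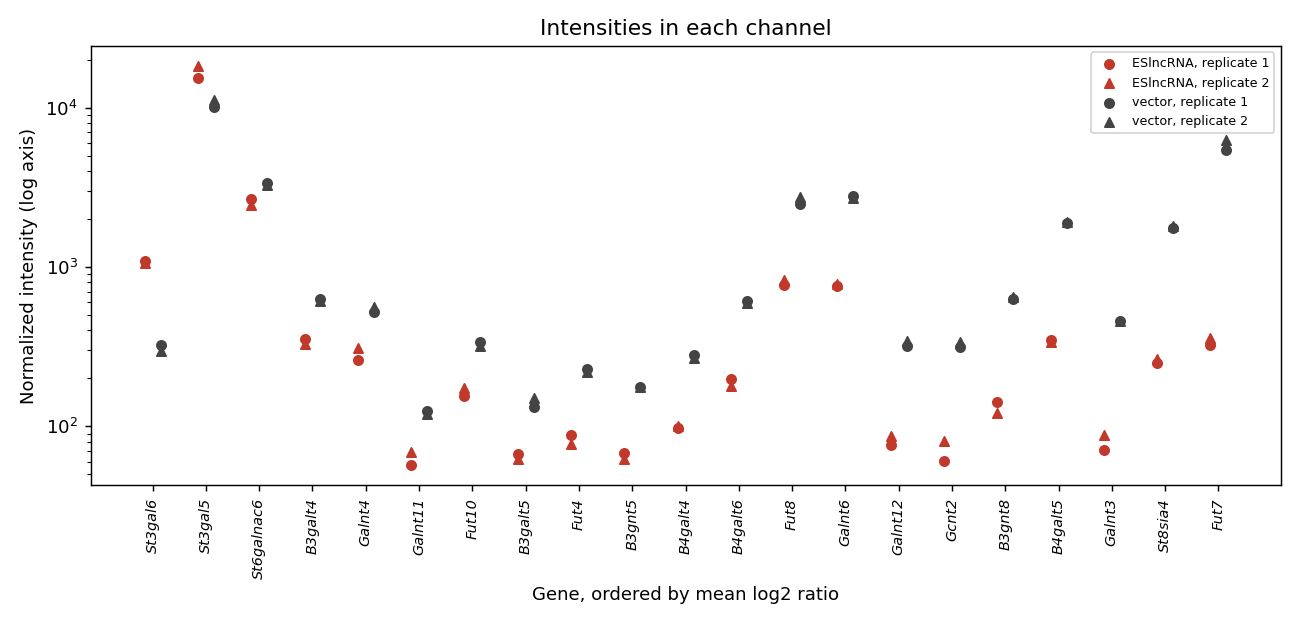
Normalized intensity (log axis) of the 21 genes called and at least 1.5-fold different on both arrays, or of largest ratio in their class, with ESlncRNA values in red to the left of vector values in dark grey and 1 symbol per replicate. Levels can be compared within a gene only; the 2 replicates of a condition lie close together, and the ESlncRNA values of St3gal6 and St3gal5 alone lie above those of vector.

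The GalNAc-transferases that start O-glycans (Galnt, 13 genes) fell in 7 of 9 tested members, 1 of which turned with median centring, with a median of -0.93, or -0.69 with the 1 gene that has only a bound set at that bound. The median was -0.58 with median centring and -0.32 with no filter. Galnt3, known for protecting the hormone FGF23 from cleavage, had intensities of 71.0 and 88.4 in ESlncRNA cells, against 457 and 458 in vector cells. It was above background in ESlncRNA cells on 1 of 2 arrays, and its log2 ratio was -2.53 ± 0.22 (limma adjusted p = 9.10e-07). Galnt12 had intensities of 76.7 and 86.9 in ESlncRNA cells, on 1 of 2 arrays above background, against 320.3 and 342 in vector cells. Its log2 ratio was -2.02 ± 0.061 (limma adjusted p = 3.76e-07), and a second sequence gave -1.65. Galnt6, the closest relative of Galnt3, had intensities of 755 and 784 in ESlncRNA cells, against 2785 and 2697 in vector cells. Its log2 ratio was -1.83 ± 0.071 (limma adjusted p = 6.13e-07).

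Galnt4 fell less, and the fall of Galnt11 has only a bound, so it cannot be ranked. Galnt4, which acts on peptides that already carry GalNAc, had intensities of 261 and 309.9 in ESlncRNA cells, against 522 and 564 in vector cells, a log2 ratio of -0.93 ± 0.098 (limma adjusted p = 1.86e-05). Galnt11, known for O-glycosylating Notch1, had intensities of 57.0 and 69.1 in ESlncRNA cells, not well above background, against 125 and 119 in vector cells. It was at least 1.62-fold lower in ESlncRNA cells (limma adjusted p = 0.000119). Such bounds set the vector mean against the lowest signal well above background, or against the ESlncRNA signal itself where that is higher.

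The broadly expressed Galnt1 and Galnt2 had log2 ratios of -0.32 and -0.41 and were called lower, but Galnt2 turned to 0.24 with median centring and Galnt1 to 0.15, not called. Galnt1 was not called with processed signals either (-0.09). Galnt10 rose by 0.34 (limma adjusted p = 0.00107) and stayed higher with both other scalings. Galnt7, which extends glycosylation already begun, had a log2 ratio of -0.15 and did not pass. Galnt5, Galnt9, Galnt13 and Galnt14 were not tested.

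The β1,3-N-acetylglucosaminyltransferases (B3gnt, 9 genes) extend chains, B3gnt2 and B3gnt8 on N-glycans and B3gnt5 on glycolipids. Of 5 tested, 3 fell, 1 rose and 1 did not pass, with a median of -0.57 that was -0.079 with median centring and -0.13 with no filter on background. B3gnt8 had intensities of 141 and 122 in ESlncRNA cells, against 627 and 645 in vector cells. Its log2 ratio was -2.28 ± 0.18 (limma adjusted p = 8.90e-07). B3gnt5, the lactotriaosylceramide synthase, had intensities of 68.5 and 62.4 in ESlncRNA cells, not well above background, against 178 and 177 in vector cells, so it was at least 2.34-fold lower (limma adjusted p = 2.12e-06).

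B3gnt2, the main poly-N-acetyllactosamine synthase, had a log2 ratio of -0.57 (limma adjusted p = 9.99e-05) and was not called with median centring (-0.08). The gene named B3gnt9-ps on the array (B3gnt9 in RefSeq) rose by 0.20 (limma adjusted p = 0.0227) and was not called with normexp offset 0 or the deposited log2 values. The gene named B3gnt1 on the array is B4gat1 in RefSeq, a glucuronyltransferase of α-dystroglycan glycans, and at -0.13 it did not pass. B3gnt3, B3gnt4, B3gnt6 and B3gnt7 were not tested.

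Of 5 β1,3-galactosyltransferase genes (B3galt), 3 were tested and 2 fell, with a median of -0.86 that was -0.49 with median centring and -0.078 with no filter. B3galt4 makes the gangliosides GM1 and GD1b. It had intensities of 354 and 327 in ESlncRNA cells, against 629 and 608 in vector cells, with a log2 ratio of -0.86 ± 0.049 (limma adjusted p = 1.62e-05). A second sequence gave -0.79. B3galt5, which makes type 1 chains, had intensities of 67.5 and 62.7 in ESlncRNA cells, not well above background, against 132 and 150.0 in vector cells, and was at least 1.87-fold lower (limma adjusted p = 3.35e-05). B3galt6, a galactosyltransferase of the proteoglycan linker, had a log2 ratio of 0.11 and did not pass. B3galt1 and B3galt2 were not tested.

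All 7 β1,4-galactosyltransferases (B4galt) were tested and all 7 were called lower, with a median of -0.39, although 2 of them turned with median centring, and the members separated by size. The median was -1.01 with processed signals. B4galt5, a lactosylceramide synthase, had intensities of 346 and 337 in ESlncRNA cells, against 1876 and 1927 in vector cells. Its log2 ratio was -2.48 ± 0.055 (limma adjusted p = 1.66e-07). B4galt6, the other lactosylceramide synthase, had intensities of 199 and 179 in ESlncRNA cells, against 610.5 and 594 in vector cells, a log2 ratio of -1.68 ± 0.080 (limma adjusted p = 9.73e-07). Its second sequence gave -2.10, so both lactosylceramide synthases were lower in ESlncRNA cells by each sequence that was tested. B4galt4, which makes N-acetyllactosamine, had intensities of 97.3 and 101 in ESlncRNA cells, against 279 and 269 in vector cells, a log2 ratio of -1.47 ± 0.076 (limma adjusted p = 1.68e-06). The second B4galt4 sequence gave a smaller fall of -0.81, under 2-fold on both arrays (-0.78 and -0.83). It was above background in ESlncRNA cells on 1 of 2 arrays.

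The other 4 lay between -0.39 and -0.29. B4galt1, the main N-acetyllactosamine galactosyltransferase, was the brightest example, with intensities of 8259 and 8655 in ESlncRNA cells and 10287 and 10684 in vector cells. Its log2 ratio of -0.31 turned to 0.38 with median centring, and that of B4galt3, -0.29, turned to 0.39. B4galt7, the first galactosyltransferase of the proteoglycan linker, had -0.30 and was not called with median centring (0.08) or processed signals (-0.12). B4galt2, at -0.39, was above background in ESlncRNA cells on 1 of 2 arrays.

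Of the fucosyltransferases (Fut, 9 genes), 5 were tested, 4 fell and 1 did not pass, with a median of -1.44, or -0.051 with no filter. The brighter of the 2 Fut7 sequences printed above had intensities of 326 and 357 in ESlncRNA cells, against 5421 and 6245 in vector cells. The ESlncRNA values were far below the vector values on both arrays, and the log2 ratio was -4.09 ± 0.050 (limma adjusted p = 5.44e-08). The dimmer sequence had intensities of 80.7 and 82.0 in ESlncRNA cells, against 315 and 330.1 in vector cells, and gave -1.99 (limma adjusted p = 3.34e-07).

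Fut8 adds the core fucose of N-glycans. It had intensities of 772 and 826 in ESlncRNA cells, against 2476 and 2764 in vector cells, with a log2 ratio of -1.71 ± 0.043 (limma adjusted p = 6.64e-07). Fut4, which makes Lewis x (CD15), had intensities of 88.1 and 77.5 in ESlncRNA cells, on 1 of 2 arrays above background, against 229 and 218 in vector cells. Its log2 ratio was -1.44 ± 0.081 (limma adjusted p = 1.93e-06). Fut10 had intensities of 155 and 175 in ESlncRNA cells, against 341 and 319 in vector cells, a log2 ratio of -1.0 ± 0.19 (limma adjusted p = 4.53e-05), and its second sequence gave -0.65. Fut11 had a log2 ratio of -0.01 and did not pass. The blood group H enzymes Fut1 and Fut2, as well as Fut9 and Fut4-ps1, were not tested.

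Of the 5 branching enzymes (Gcnt), 2 were tested and both were called lower, with a median of -1.26, although Gcnt1 turned with median centring. The median was -2.33 with processed signals and -0.048 with no filter. Gcnt2 makes the I-branches that turn the i antigen of red cells into I. Its brighter sequence had intensities of 60.5 and 81.2 in ESlncRNA cells, not well above background, against 317 and 336 in vector cells, and it was at least 4.22-fold lower (limma adjusted p = 2.04e-06). The dimmer sequence had 84.7 and 70.2 in ESlncRNA cells, against 88.9 and 88.4 in vector cells, and was at least 1.09-fold lower (limma adjusted p = 0.0464). Gcnt1, the core 2 enzyme of leukocyte selectin ligands, had intensities of 2408 and 2652 in ESlncRNA cells, against 3059 and 3207 in vector cells. Its log2 ratio of -0.31 (limma adjusted p = 0.00198) turned to 0.25 with median centring and shrank to -0.14 with processed signals. The second Gcnt1 sequence gave 0.01 and did not pass. Gcnt3, Gcnt4 and Gcnt7 were not tested.

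Of the 25 untested members, 4 had a sequence above background on 1 array, namely St6gal1, St8sia2, B3gnt7 and Galnt14. For these genes a difference was not detectable at the signal of these arrays.

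Sequences of 1 gene gave a second reading of 15 members. In 12 of the 15 pairs both had the same sign and in 14 the same call, and the median absolute difference was 0.32 on the log2 scale. The Fut7 sequences differed by 2.11, with the dimmer one closer to 0. That one had 80.7 and 82.0 in ESlncRNA cells, called well above background but near it, so the 2.11 may not be exact. Both Gcnt2 sequences and the dimmer Galnt6 sequence (at least 1.5-fold lower) have only bounds, so their differences have no exact size. The array annotation gives the paired sequences of Gcnt2, Galnt6 and Fut10 different RefSeq transcripts, and whether each pair measures the same transcript was not tested. The pairs share an RNA source and an array, so they are not replicates of the condition.

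**Figure D3:**
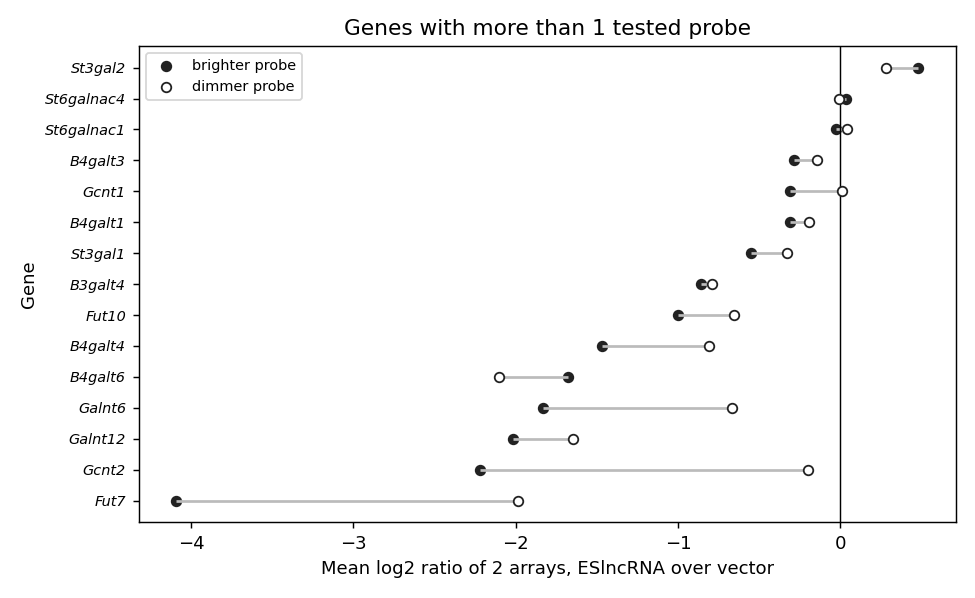
Mean log2 ratio of ESlncRNA over vector (horizontal axis, 2 arrays) of both tested sequences of 15 genes, the brighter one filled and the dimmer one open. The pairs lie on 1 side of 0 except for St6galnac4, St6galnac1 and Gcnt1. The Fut7 points lie 2.11 apart, the open one near background in ESlncRNA cells. Both Gcnt2 points and the open Galnt6 point were not well above background in ESlncRNA cells, so the lengths of their lines are not exact.

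The size of a ratio was not settled for dim members. Gcnt2, B3gnt5, B3galt5 and Galnt11, which have only bounds, and Galnt3, above background in ESlncRNA cells on 1 of 2 arrays, moved furthest down with Agilent's processed signals, which differ in both background and dye handling, and they have no exact value there either. With processed signals Fut7 had -4.10, St8sia4 -2.89 and B4galt5 -2.42. With normexp offset 0, which alters the background step alone, they had -4.28, -3.05 and -2.67. Some dimmer members moved further with offset 0: B4galt4 to -2.14, Fut4 to -2.32, Galnt12 to -3.01 and Galnt3 to -3.62. The members at least 2-fold lower on both arrays then numbered 17, in place of 13. St3gal6 had 2.31 with processed signals, and St3gal5 had 0.78.

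**Figure D4:**
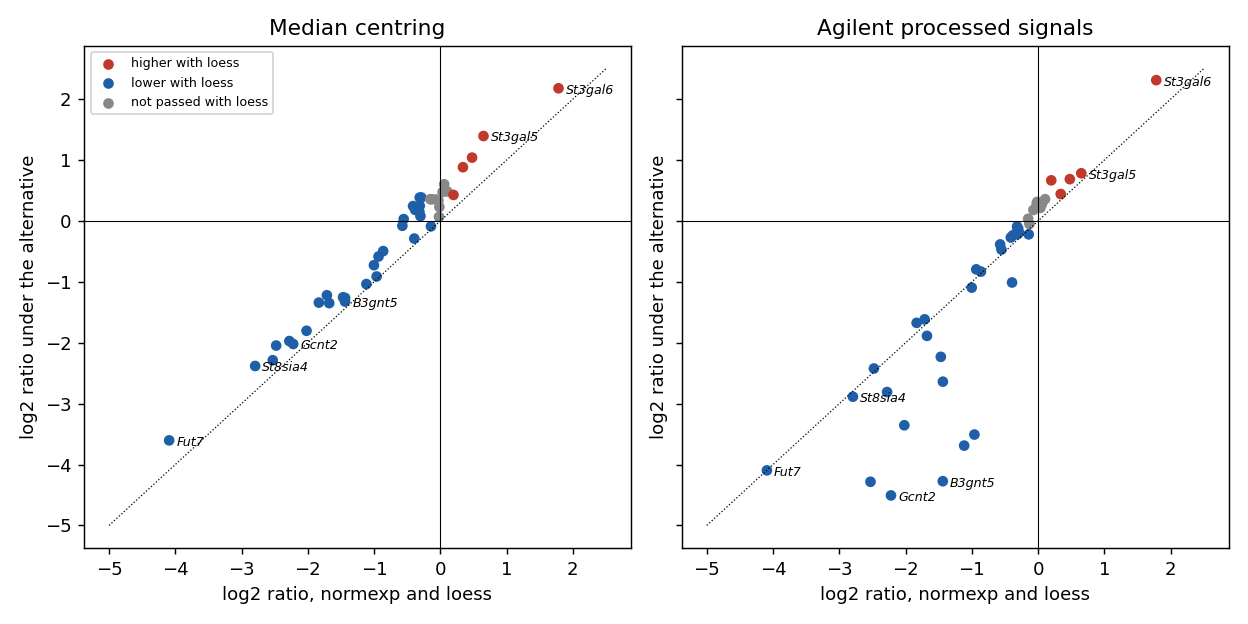
Mean log2 ratio of the 43 tested genes under median centring (left) and with Agilent's processed signals (right), against the ratio after normexp and loess (horizontal axis), with the diagonal dotted. On the left nearly all points lie above the diagonal and 5 genes called lower by loess are called higher; on the right dim genes such as Gcnt2 and B3gnt5 lie far below the diagonal, at values that are not exact because their ESlncRNA signal was not well above background.

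Genes that supply or use the same sugars were counted from the same fit, in which 26.3% of all genes rose and 36.8% fell. In the sialic acid list (supply and removal, 13 of 15 tested) 5 rose and 8 fell, with a median of -0.24. With median centring 8 were called higher and 4 lower, with a median of 0.39. Its members with the smallest p were Npl, the sialic acid lyase, at -2.24 ± 0.13 (limma adjusted p = 4.87e-07), Renbp, a renin-binding epimerase, at -1.55 ± 0.026 (9.12e-07), and Nagk, the N-acetylglucosamine kinase, at -1.33 ± 0.018 (1.80e-06).

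In fucose and galactose supply (16 tested) 3 rose, 8 fell and 5 did not pass, with a median of -0.14. With median centring 9 were called higher and 3 lower, with a median of 0.31. Galk2 and Glb1, the lysosomal β-galactosidase, both had -0.94 (SD 0.010 and 0.013, limma adjusted p = 8.81e-06 and 9.04e-06), and Slc35c2 had -0.83 ± 0.034 (1.76e-05). In hexosamine supply (12 tested) 3 rose, 6 fell and 3 did not pass, with a median of -0.16. With median centring 7 were called higher and 2 lower, with a median of 0.21. Uap1l1 had -1.88 ± 0.042 (limma adjusted p = 4.36e-07) and Amdhd2 -0.81 ± 0.027 (1.91e-05), while Uap1, which makes UDP-GlcNAc, rose by 0.67 ± 0.094 (8.54e-05). Amdhd2 was not called with median centring (-0.11).

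Of 23 tested other Golgi glycosyltransferases (of 36), 5 rose, 13 fell and 5 did not pass, with a median of -0.15. With median centring 11 were called higher and 4 lower, with a median of 0.15. Mfng, a Fringe enzyme that modifies Notch, had -1.19 ± 0.045 (limma adjusted p = 3.44e-06) and Mgat4b, an N-glycan branching enzyme, -0.72 ± 0.011 (3.19e-05). C1galt1, the core 1 synthase, rose by 0.76 ± 0.091 (4.45e-05). Of 9 tested glycan sulfotransferases (of 18), 3 rose, 5 fell and 1 did not pass, with a median of -0.26, or -0.13 with the 3 genes that have only a bound set at it. That median was -0.27 with median centring, -1.21 with processed signals and -0.51 with the deposited log2 values, each with the bounded genes at their measured ratios. Chst1, a keratan sulfate enzyme, had -2.61 ± 0.035 (limma adjusted p = 1.28e-07), Chst12 -1.20 ± 0.014 (2.79e-06), and Chst13 was at least 2.34-fold lower (1.25e-06).

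Proteins that carry or read these sugars formed 2 further lists. Of 14 tested selectins and sialomucin carriers, 3 rose and 11 fell, with a median of -0.59. With median centring 5 were called higher and 6 lower, with a median of 0.04. Cd34 had intensities of 1157 and 1252 in ESlncRNA cells, against 21275 and 23621 in vector cells, a log2 ratio of -4.22 ± 0.026 (limma adjusted p = 5.44e-08). Ptprc, the leukocyte common antigen CD45, had -2.70 ± 0.050 (limma adjusted p = 1.23e-07). Cd24a and Gypc, named after their values were seen, were among those that rose and had log2 ratios of 0.68 and 0.45. Of 14 tested siglecs and galectins, 3 rose, 8 fell and 3 did not pass, with a median of -0.28. With median centring 6 were called higher and 5 lower, with a median of 0.06. Lgals3, Siglecf and Cd33 had log2 ratios of -3.09 ± 0.027, -3.39 ± 0.097 and -2.31 ± 0.070 (limma adjusted p = 7.55e-08, 8.67e-08 and 2.43e-07). Several genes of these last lists are also markers of leukocytes or progenitors.

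The RefSeq promoter table (GRCm38.p6, 250 bases before to 50 after a gene's start) held windows for 49 of the 68 members. The letters AGATAA or their reverse complement TTATCT, a core that GATA factors bind, were in 11.2% of all 32851 windows, in 1 of 4 windows of members that rose, in 2 of 34 of members that fell, in 0 of 8 of members that did not pass and in 3 of 21 of untested members. The letters GAGGAA or TTCCTC, found in sites of the myeloid ETS factor PU.1, were in 28.3% of all windows, in 0 of 4 windows of members that rose, in 16 of 34 (47.1%) of members that fell, in 3 of 8 (37.5%) of members that did not pass and in 4 of 21 (19.0%) of untested members. These counts are of windows, from 3 genes that rose, 22 that fell, 8 that did not pass and 16 untested. Windows of 1 gene can overlap and are not independent, and such matches are a description, not binding sites. St3gal6, which rose, and Fut7, which fell, are shown, each with the window that holds a GATA match, in capitals.
St3gal6, chr16:58524204-58524503, minus strand: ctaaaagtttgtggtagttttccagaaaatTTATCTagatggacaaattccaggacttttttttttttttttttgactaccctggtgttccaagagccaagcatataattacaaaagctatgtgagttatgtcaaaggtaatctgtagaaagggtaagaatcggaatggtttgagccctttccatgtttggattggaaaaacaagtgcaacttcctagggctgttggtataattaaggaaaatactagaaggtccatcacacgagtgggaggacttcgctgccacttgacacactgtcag
Fut7, chr2:25422992-25423291, plus strand: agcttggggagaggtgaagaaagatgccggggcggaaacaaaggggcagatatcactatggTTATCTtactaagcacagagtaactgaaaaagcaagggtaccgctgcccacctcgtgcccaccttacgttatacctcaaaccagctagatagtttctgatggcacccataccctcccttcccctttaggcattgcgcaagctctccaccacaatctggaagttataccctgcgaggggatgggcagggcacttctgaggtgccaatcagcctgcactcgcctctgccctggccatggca
A second window of St3gal6 and a second one of Fut7 held no GATA match, and the second Fut7 window held 2 matches to the ETS letters.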

How the data were processed

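Total RNA of ESlncRNA cells (Cy5) and vector cells (Cy3) was compared on 2 arrays. They lay on 1 slide and shared a scan, so neither gives a batch to test. Per the labels' protocols, RNA was labelled with the QuickAmp kit. The headers name Feature Extraction 10.1.1.1 as the reader of the spots. The deposited intensities (mean signal and median local background of each spot) were the starting point, and the processed intensities, background-subtracted and dye-normalized by the authors' software, an alternative. Deposited log10 ratios (Cy5 over Cy3) were used to check direction (r = 0.986 and 0.992 with the processed intensities). The authors' deposited log2 values came from limma, per the submitters' processing notes, with the version not given. They had medians of -0.02 and -0.01 and correlated at r = 0.99996 on each array with loess ratios of Cy5 over Cy3 made here without background subtraction, from which their scale and direction were taken.

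Here background was corrected with normexp (offset 50), loess was run within arrays with weight 0 for control and marked spots, and spots of a sequence were averaged (limma 3.58.1 in R 4.3.3). On both arrays, a sequence had to be well above background in 1 channel or more, which kept 26789. Of 59305 spots, 284 and 308 were marked and 0 were saturated. Well above background were 45.6% and 44.4% of spots in ESlncRNA cells and 52.1% and 49.1% in vector cells. A gene stands for its brightest sequence. An intercept was fitted with lmFit and eBayes (1 residual and 5.27 prior degrees of freedom), with Benjamini-Hochberg adjustment over all sequences kept and a threshold of 0.05. The steps were run on simulated data with as many sequences raised as lowered. Large changes here were mostly lower, so that run cannot show how the scaling handles such an imbalance. Ratios are the mean log2 ratio of 2 arrays, intensities are those after loess, and the number of arrays limits the precision.

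Members, gene lists, marker lists and tests were chosen with earlier results of these data known. Values are given in full for members that passed and were at least 1.5-fold different with 1 sign on both arrays, for the member of largest ratio in each class, and for the 3 genes of smallest p in each list, except 1 that is not reported here; other members are given by count, range and name, and marker genes by count and range. Markers not above background, and genes marked so, were named after their values were seen. A fold written "at least" uses values after loess and Aquantile and may hold dye bias. Alternatives were median centring, processed signals, normexp offset 0, no filter, both channels above background, the deposited log2 values, the mean of a gene's sequences, a trend in eBayes, and leaving out a replicate.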

Additional observations from a re-analysis of the deposited data

How the results depend on the processing

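With median centring 18 members were called higher and 19 lower, 2 were higher by at least 2-fold on both arrays, all genes gave 12511 higher and 3633 lower, and the list genes gave 49 higher and 29 lower. The class medians were then 0.82 (St3gal), 0.26 (St6galnac), -1.24 (St8sia), -0.58 (Galnt), -0.079 (B3gnt), -0.49 (B3galt), -0.29 (B4galt), -1.22 (Fut) and -0.89 (Gcnt), with 0.34 over all genes. The members that turned were St6galnac6 (0.18), Galnt2 (0.24), B4galt1 (0.38), B4galt3 (0.39) and Gcnt1 (0.25), while 5 others lost their call and 8 gained one. With processed signals 9 members were called higher, all genes gave 4707 lower, and medians were 0.48 (St3gal), 0.22 (St6galnac), -1.55 (St8sia), -0.39 (B3gnt), -1.01 (B4galt), -1.62 (Fut), -2.33 (Gcnt) and 0.11 (all genes), while 5 members lost their call and 4 gained one. With normexp offset 0 medians were -1.68 (St8sia), -1.09 (Galnt), -0.60 (B3gnt), -0.99 (B3galt), -0.75 (B4galt), -1.78 (Fut), -1.95 (Gcnt) and -0.042 (all genes). With no filter, which adds dim genes, they were -0.092 (St8sia), -0.32 (Galnt), -0.13 (B3gnt), -0.078 (B3galt), -0.051 (Fut), -0.048 (Gcnt) and 0.0029 (all genes). With both channels above background, which leaves out genes dim in ESlncRNA cells, 8 members were at least 2-fold lower, and medians were -2.79 (St8sia), -0.36 (Galnt), -0.35 (B3gnt), -0.38 (B3galt), -0.89 (B4galt), -0.31 (Gcnt) and -0.0048 (all genes). The deposited log2 values gave -1.57 (St8sia), -0.615 (B3gnt), -0.98 (B3galt), -0.595 (B4galt), -1.775 (Fut), -1.45 (Gcnt) and -0.05 (all genes), and 2 members lost their call. The mean of a gene's sequences gave 0.22 (St3gal), -0.72 (Galnt) and -0.68 (Gcnt). Leaving out a replicate gave medians of -0.035 and -0.032 over all genes, and 14 to 16 members at least 2-fold lower. A single array allows no test, so counts of calls have no value without a replicate. No separate paired analysis was run, because each array is 1 ratio of both conditions, so the test used already pairs them. The trend in eBayes changed the call of 0 of 43 members. Apart from dilution by added or removed genes, the cause of these shifts was not tested. Signal over background limits the 25 untested members and the members whose ESlncRNA signal lay near background.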
